A study of Saccharomyces cerevisiae with 18 samples.

Results

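The proteins of the small (40S) ribosomal subunit of the budding yeast Saccharomyces cerevisiae are encoded by the RPS genes. Members were taken as the nuclear coding genes whose standard symbol is RPS followed by a number, with or without the paralog letter A or B. The rule gave 56 of the 6002 nuclear coding genes of the R64 reference table. They encode 32 proteins, of which 24 come from a pair of paralogs (48 genes) and 8 from a single gene. An intron interrupts 36 of the 56 genes, and the members lie on 14 chromosomes. Coding lengths run from 171 to 786 bases with a median of 432, against a median of 1263 over all nuclear coding genes.

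The series measured RNA in 5 libraries, Hmo1 binding in 2, histone H3 nucleosomes in 4 and Top2-linked contacts in 1, with 1 library in every group. RNA came from hmo1Δ;top2-1, hmo1Δ, top2-1 and wild-type cells grown at 28 °C and held at 37 °C for 60 min, and from a wild-type library labelled as S phase, released from G1 arrest for 15 min at 28 °C. The growth text of that last library describes the 37 °C shift instead, so it differs from the other wild-type library in temperature and cell cycle as labelled. The allele top2-1 is temperature-sensitive, so Top2 is impaired at 37 °C, and hmo1Δ lacks the HMO1 gene. Chromatin immunoprecipitation (ChIP) of Flag-tagged Hmo1 was done in cells held at 37 °C for 2 h 15 min. One Hmo1 library carried a TopA plasmid, for the Escherichia coli topoisomerase I, in top2-1;top1Δ cells. The other carried a control plasmid; its genotype label and the series design give the tag alone, but its title names top2-1 and top1Δ. H3 ChIP covered top2-1;top1Δ with the TopA plasmid, top2-1;top1Δ with the control plasmid, and wild type with each plasmid, all at 37 °C for the same time. Top2 contacts came from wild-type cells at 28 °C by ChIA-PET, which joins DNA segments held by one protein; its label says log phase and its growth text G1 arrest and release.

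Ribosomal protein genes in yeast are transcribed together as one of the largest groups of messages in growing cells, and their output is cut under heat and other stress. Their promoters are mostly bound by Rap1, with Fhl1 and its coactivator Ifh1, and many also by Hmo1, an abundant HMG-box protein that bends and bridges DNA. Top1 and Top2 relax the supercoils that transcription drives ahead of and behind the polymerase. Most RPS proteins come from 2 paralogous genes that make nearly identical products, which assemble on the 18S rRNA into the head and the body of the subunit.

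The 5 libraries held 4752497 to 14770310 estimated counts, and each RPS gene had at least 135 counts (RPS29A, wild type at 37 °C) in every library. HMO1 itself had 0 counts in hmo1Δ;top2-1 and 0 in hmo1Δ, against 1327 in top2-1, 1152 in wild type at 37 °C and 1386 in wild type at 28 °C, as the labels require. In the 28 °C library nuclear coding genes took 77.6% of counts, against 97.9% to 98.1% in the 4 libraries at 37 °C, so it stands apart in makeup. With no replicates, intervals below are exact 95% counting intervals. They cover counting error only: the spread between cultures is not in them, PCR copies of 1 molecule count more than once, and no difference between groups was tested. The libraries are bulk RNA from many cells, so a level per cell and the share of cells at some stage cannot be told apart. Ratios are log2 ratios of CPM, that is counts relative to library size, scaled by the trimmed mean of M-values. "Higher" and "lower" mean on that scale, which centres the bulk of genes near 0.

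RPS messages made up 4.87% of nuclear coding counts in hmo1Δ;top2-1, 3.95% in hmo1Δ, 3.96% in top2-1, 4.13% in wild type at 37 °C and 4.21% in wild type at 28 °C. Per length, on the deposited TPM scale (transcript levels corrected for length and brought to a fixed sum), members within 1 library differed widely. In wild type at 37 °C they ran from 282 TPM (RPS22B) to 8074 TPM (RPS30B), with a median of 1491. The RPS30 genes are only 192 coding bases long, and the fragment length that the counting tool deducts from a gene makes the TPM of such short genes unsteady. Leaving them out, RPS31, which encodes a ribosomal protein fused to ubiquitin, was the highest with 4273 TPM, followed by RPS12 with 4101 TPM. RPS22B was also the lowest member in hmo1Δ;top2-1 (223 TPM), hmo1Δ (108 TPM) and wild type at 28 °C (174 TPM), while RPS9A was the lowest in top2-1 (279 TPM).

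**Figure D1:**
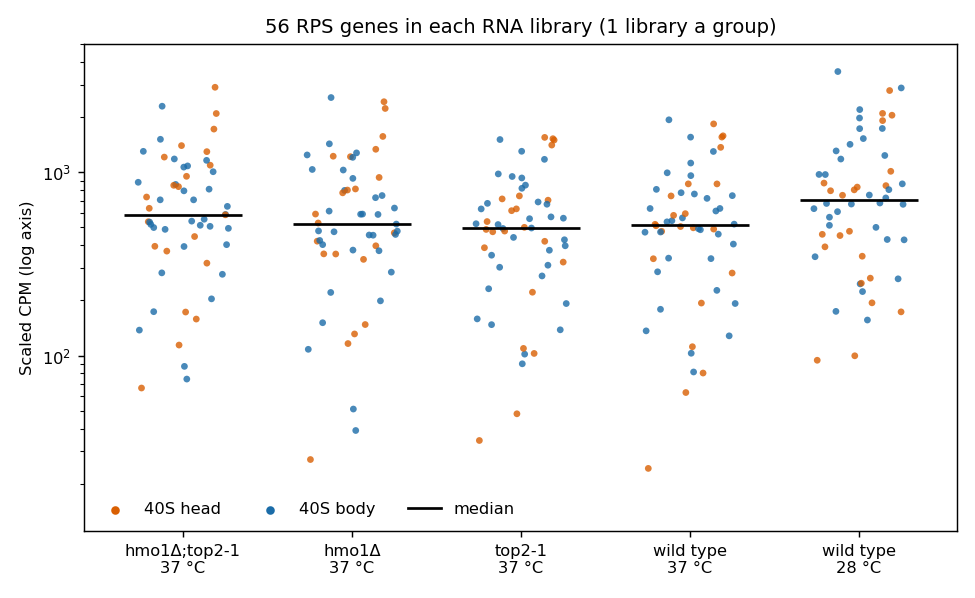
Scaled CPM (log axis) of the 56 RPS genes in each of the 5 RNA libraries; points are genes, coloured by their place in the 40S head or body, and bars are medians. The medians are 587, 525, 498, 515 and 701 CPM from left to right; a gene is to be read across libraries, since CPM does not correct for length.

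Without Hmo1, RPS messages differed from wild type at 37 °C in both directions, with shares past 2-fold near those of all genes. The median log2 ratio of hmo1Δ over wild type was 0.21 over the 56 RPS genes, 0.03 over the 76 genes of large-subunit proteins (RPL) and -0.02 over the 5599 nuclear coding genes that averaged 20 counts or more. Past 2-fold, 3 RPS genes were higher and 4 lower, that is 5.36% and 7.14%, against 6.64% and 4.86% of all genes. At 1.5-fold, 15 were higher and 9 lower (26.8% and 16.1%), against 15.5% and 14.6% of all genes. The level of the whole group depends on the scaling. Under library totals the median was -0.02 with 5 genes 1.5-fold higher and 12 lower, and in TPM it was -0.15 with 3 higher and 15 lower. The median over all genes was then -0.26 and -0.31, and the RPS median stayed 0.16 to 0.23 above it under every scaling tried.

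The lowest member was RPS0A (YGR214W, R64 chrVII:920575-921788), which encodes a protein needed for late processing of the 18S rRNA. It had 376 CPM in hmo1Δ, against 958 CPM in wild type at 37 °C, a log2 ratio of -1.35 (interval -1.42 to -1.28). With top2-1 also present the values were 393 CPM in hmo1Δ;top2-1, against 817 CPM in top2-1. Both libraries without Hmo1 were thus below both libraries with it.

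RPS22B (chrXII:856442-857317) had 39.1 CPM in hmo1Δ, against 81.4 CPM in wild type at 37 °C, a log2 ratio of -1.06. RPS24B (chrIX:231553-232369) had 51.1 CPM in hmo1Δ, against 103 CPM in wild type, a ratio of -1.01. Both are low-abundance paralogs, and with top2-1 they were less far apart. RPS22B had 74.5 CPM in hmo1Δ;top2-1 against 102 CPM in top2-1, and RPS24B had 87.4 CPM against 90.2 CPM. RPS1B was at -0.84, with 726 CPM in hmo1Δ, against 1297 CPM in wild type. In the top2-1 background it had 1160 CPM in hmo1Δ;top2-1, against 1175 CPM in top2-1, a ratio of -0.018 (interval -0.059 to 0.023), so the difference was not seen there.

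At the other end, RPS14B (YJL191W, chrX:73787-74611) had 1242 CPM in hmo1Δ, against 471 CPM in wild type at 37 °C, a log2 ratio of 1.40 (interval 1.34 to 1.46). In its other background it had 881 CPM in hmo1Δ;top2-1, against 524 CPM in top2-1. The S14 protein of the subunit's platform is known in yeast to bind the RPS14B pre-mRNA and hold back its own second gene. RPS21A (chrXI:551657-552242) had 494 CPM in hmo1Δ;top2-1 and 477 CPM in hmo1Δ, against 192 CPM in top2-1 and 192 CPM in wild type at 37 °C. Its ratio of hmo1Δ over wild type was 1.31 (interval 1.21 to 1.41). RPS27A (chrXI:158613-159212), for a zinc-binding protein of the body, had 277 CPM in hmo1Δ;top2-1 and 285 CPM in hmo1Δ, against 138 CPM in top2-1 and 128 CPM in wild type, a ratio of 1.15. RPS29B (0.88) and RPS28B (0.88) completed the highest 5; their products sit on the head and at the mRNA exit. For RPS14B, RPS21A, RPS27A, RPS29B and RPS28B the 2 libraries without Hmo1 were above the 2 with it at the same temperature.

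The other 46 members lay between -0.75 (RPS6A) and 0.81 (RPS25A). Counted over the 4 libraries at 37 °C, both libraries without Hmo1 were above both with it at 31 of the 56 RPS genes (55.4%) and below both at 15 (26.8%), against 29.4% and 31.1% of all coding genes. Under library totals the counts were 22 above and 18 below, against 18.5% and 42% of all genes, and in TPM 22 and 20, against 16.1% and 47.2%. This count was chosen after the values had been seen.

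**Figure D2:**
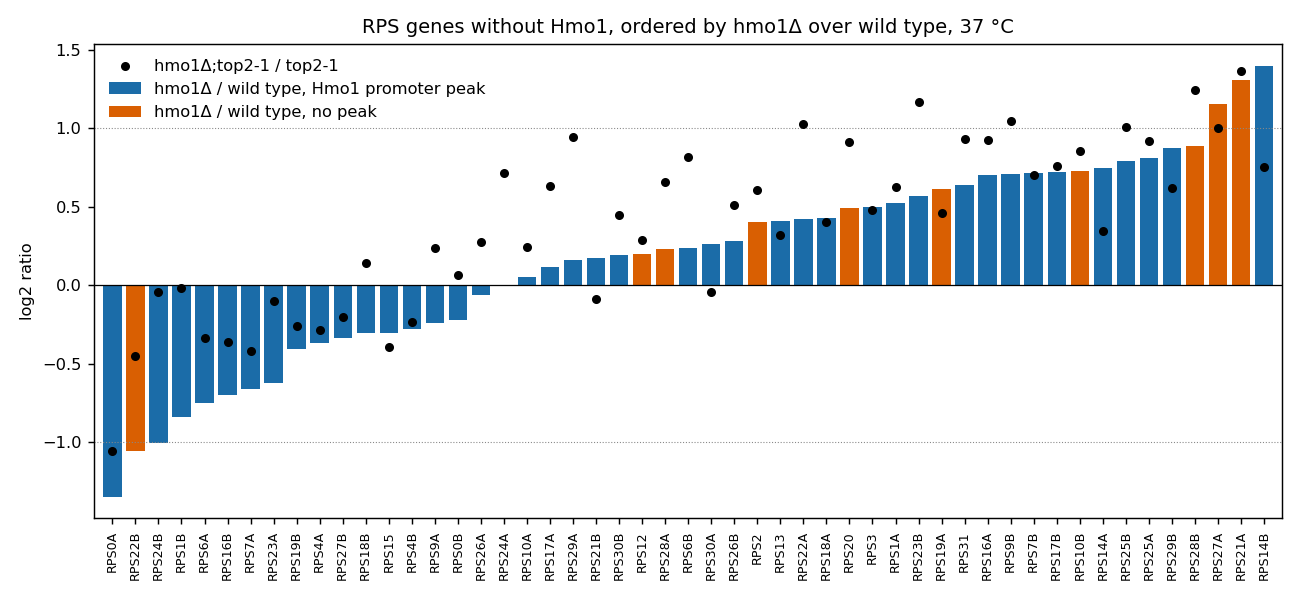
Log2 ratio of hmo1Δ over wild type at 37 °C (bars) for 51 of the 56 RPS genes in order, blue with and orange without an Hmo1 promoter peak in the control plasmid library, and of hmo1Δ;top2-1 over top2-1 (black points). Bars run from -1.35 (RPS0A) to 1.40 (RPS14B); 34 are above 0 and 17 below, and dotted lines mark 2-fold.

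Differences also lay within paralog pairs, counted here and below for RPS pairs only, with no other gene pairs as a background. In hmo1Δ over wild type the paralogs of 10 of the 24 pairs differed by at least 2-fold in their ratios and those of 20 by at least 1.5-fold, and in 13 pairs the paralogs lay on opposite sides of 0. The pairs furthest apart were RPS27 (RPS27A 1.15, RPS27B -0.33), RPS22 (RPS22A 0.42, RPS22B -1.06), RPS16 (RPS16A 0.70, RPS16B -0.70), RPS7 (RPS7A -0.66, RPS7B 0.72) and RPS1 (RPS1A 0.52, RPS1B -0.84). In top2-1 over wild type no pair differed by 2-fold and 1 (RPS22, -0.64 as A minus B) by 1.5-fold, ahead of RPS7 (-0.52), RPS28 (0.35), RPS19 (0.30) and RPS16 (0.29). These counts of pairs at 2-fold were the same under every scaling tried, since a scaling acts on both paralogs of a pair alike.

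Which paralog dominated differed between libraries in several pairs. RPS16A, for a protein of the head, gave 71.9% of RPS16 counts in hmo1Δ;top2-1 and 69.4% in hmo1Δ, against 51.2% in top2-1, 46.1% in wild type at 37 °C and 31.8% in wild type at 28 °C. RPS23A, for a protein of the decoding centre, gave 35.2% of RPS23 counts in hmo1Δ;top2-1 and 34.2% in hmo1Δ, against 56.7% in top2-1, 54.3% in wild type at 37 °C and 47.4% in wild type at 28 °C. RPS27A gave 66.8% in hmo1Δ;top2-1 and 72.5% in hmo1Δ, against 46.6% in top2-1 and 48.4% in wild type at 37 °C. RPS0A gave 40.1% in hmo1Δ;top2-1 and 37.1% in hmo1Δ, against 59.3% in top2-1 and 56.2% in wild type at 37 °C. In each of these 4 pairs the exact binomial intervals of the 2 libraries without Hmo1 did not meet those of the 2 with it. Paralogs share long identical stretches and the authors' tool divides shared reads between them, so a share is an estimate and the sum of a pair is firmer than either gene.

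In the pairs RPS25 and RPS4 the balance differed less. RPS25A had 732 CPM in hmo1Δ;top2-1 and 591 CPM in hmo1Δ, against 387 CPM in top2-1 and 337 CPM in wild type at 37 °C. RPS25B had 446 and 335 CPM in the same 2 mutants, against 222 and 193 CPM. Both paralogs of RPS25, a protein of the head, were thus higher without Hmo1, and RPS25A gave 62.2% to 63.8% of RPS25 counts in all 5 libraries. The RPS4 paralogs lay together on the other side, at -0.37 (RPS4A) and -0.28 (RPS4B) in hmo1Δ over wild type. RPS6 was split: RPS6A had 534 CPM in hmo1Δ;top2-1 and 478 CPM in hmo1Δ, against 676 CPM in top2-1 and 806 CPM in wild type, while RPS6B had 1006 and 746 CPM in the 2 mutants without Hmo1, against 571 and 634 CPM.

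The pattern of pairs was also present in hmo1Δ;top2-1 over top2-1, a comparison that shares no library with the first. There the paralogs of 9 pairs differed by at least 2-fold and those of 15 by 1.5-fold. Of the 24 pairs, 21 had the same paralog higher in both comparisons, and across pairs the difference between paralogs had a Pearson r of 0.93 and a Spearman rho of 0.90 (24 pairs, each from the same 4 libraries). The 3 exceptions were RPS25, RPS29 and RPS30. In 7 pairs the difference was at least 2-fold both times, with the same paralog higher: RPS0, RPS7, RPS16, RPS21, RPS22, RPS23 and RPS27. RPS22A stood 1.48 above RPS22B both times on the log2 scale, and the difference of RPS7A minus RPS7B was -1.38 in hmo1Δ over wild type and -1.13 in hmo1Δ;top2-1 over top2-1. Other wide pairs with top2-1 in both arms were RPS21 (1.45), RPS16 (1.29) and RPS23 (-1.27), again as A minus B. Against wild type, hmo1Δ;top2-1 had wide pairs at RPS7 (-1.65), RPS16 (1.58), RPS21 (1.37) and RPS6 (-1.26).

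**Figure D3:**
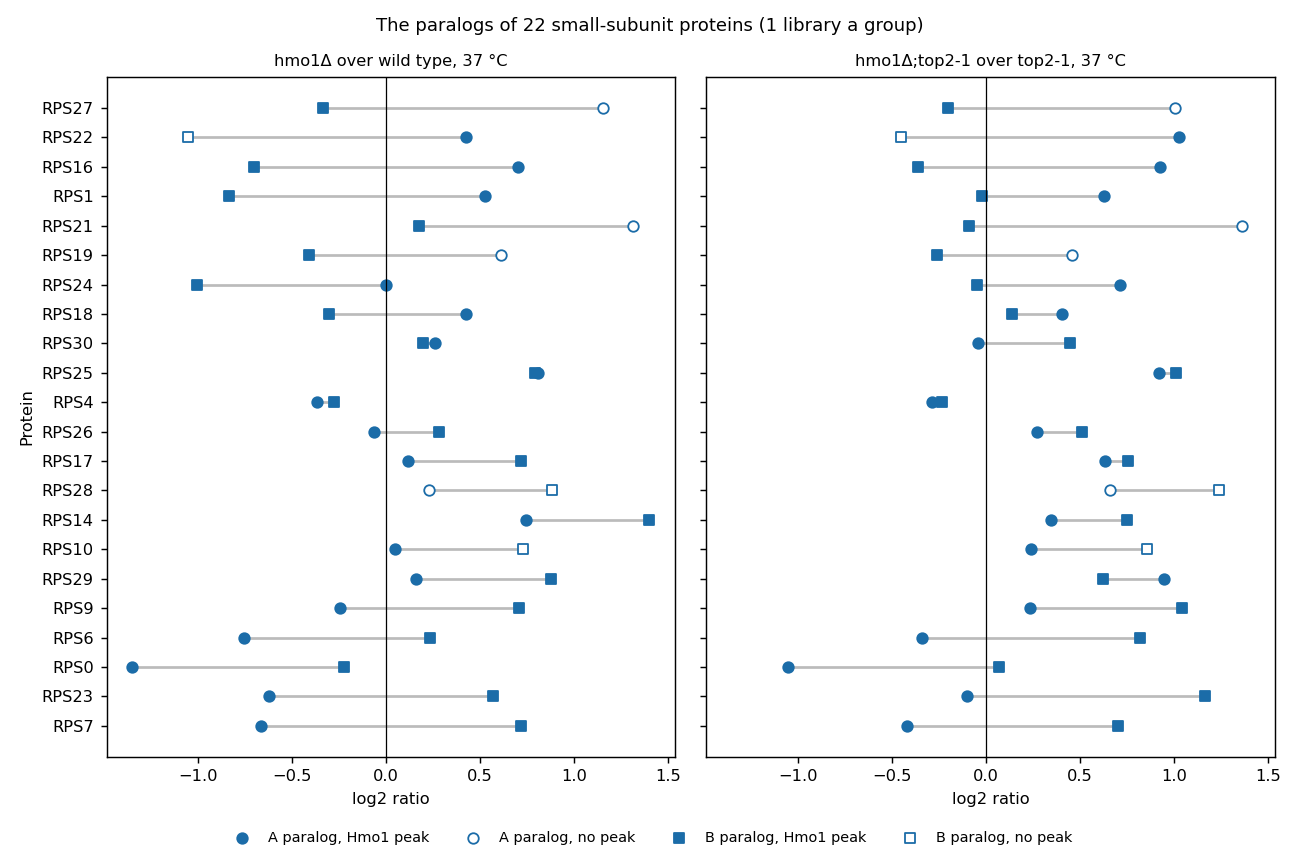
Log2 ratios of the A (circles) and B (squares) paralogs of 22 of the 24 paired small-subunit proteins, hmo1Δ over wild type at left and hmo1Δ;top2-1 over top2-1 at right, both at 37 °C; filled symbols had an Hmo1 promoter peak in the control plasmid library. Paralogs are at least 2-fold apart in 10 pairs at left and 8 at right, and pairs such as RPS25 and RPS4 barely differ.

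Summed over paralogs, the proteins differed less than the genes. The SD of the log2 ratio of hmo1Δ over wild type was 0.42 over 32 proteins, and 0.64 over 56 genes, with a median of 0.22 over proteins. A sum averages over its paralogs, so a smaller SD follows in part from the summing itself. RPS14 (1.03), RPS25 (0.80), RPS29 (0.74), RPS21 (0.64) and RPS31 (0.64) were at least 1.5-fold higher, and 2 proteins at least 1.5-fold lower, with RPS0 (-0.75) the lowest. RPS16, whose paralogs lay on opposite sides of 0, came out at 0.11 as a sum, and RPS1 at -0.09.

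The 8 single-copy genes share no reads with a paralog. In hmo1Δ over wild type 7 of them gave 0.64 (RPS31), 0.50 (RPS3, at the mRNA entry channel), 0.49 (RPS20), 0.41 (RPS13), 0.40 (RPS2), 0.20 (RPS12) and -0.30 (RPS15). RPS31 had 2904 CPM in hmo1Δ;top2-1 and 2422 CPM in hmo1Δ, against 1522 CPM in top2-1 and 1554 CPM in wild type at 37 °C. RPS2 had 2289 CPM in hmo1Δ;top2-1 and 2553 CPM in hmo1Δ, against 1507 CPM in top2-1 and 1930 CPM in wild type. RPS20 had 1396 and 1215 CPM in the same 2 mutants, against 742 and 863 CPM. For RPS31, RPS2, RPS20, RPS3, RPS12 and RPS13 both libraries without Hmo1 were above both with it at 37 °C. For RPS15 both were below. Over all coding genes 29.4% were above in this way and 31.1% below.

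In the top2-1 background the RPS genes lay further above the bulk of genes when Hmo1 was lost. The median of hmo1Δ;top2-1 over top2-1 was 0.45 for RPS genes, 0.24 for RPL genes and -0.01 for all coding genes. At least 2-fold higher were 7 members and lower 1, against 3.18% and 3.43% of all genes. At 1.5-fold, 24 members were higher and 2 lower, that is 42.9% and 3.57%, against 10.1% in each direction over all genes. The highest were RPS21A (1.36), RPS28B (1.24), RPS23B (1.17), RPS9B (1.04) and RPS22A (1.03), followed by RPS25B (1.01) and RPS27A (1.00); among the lowest were RPS0A (-1.05), RPS22B (-0.45), RPS7A (-0.42) and RPS15 (-0.40). RPS28B had 114 CPM in hmo1Δ;top2-1, against 48.2 CPM in top2-1, and RPS9B had 1299 CPM, against 630 CPM. In TPM the median was 0.23, with 2 members 2-fold higher and 2 lower, beside a median of -0.12 over all genes.

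The 2 comparisons of Hmo1 loss can be set side by side, as they share no library. The sign was the same for 49 of 56 members, above 0 in 33 and below 0 in 16, and the Spearman correlation across members was 0.84. Over all coding genes the sign was the same for 74.3% and the correlation was 0.66. Under library totals the sign was the same for 43 members (76.8%) and in TPM for 44 (78.6%), against 75.1% and 75.2% of all genes, so under these scalings the share is near that of the genome. The ratio was higher in the top2-1 background for 44 of the 56 members (78.6%), against 50.5% of all coding genes. Under library totals it was higher for 51 (91.1%) and in TPM for 50 (89.3%), against 65.1% and 67.7% of all genes.

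Impaired Top2 alone went with small differences. In top2-1 over wild type at 37 °C the RPS median was -0.05, and no member was 1.5-fold or 2-fold higher or lower. Over all genes 4.48% were 1.5-fold higher and 2.95% lower, with 0.697% and 0.411% at 2-fold. Among members, values were 0.50 (RPS29A), 0.46 (RPS7B), 0.35 (RPS29B), 0.32 (RPS22B) and 0.29 (RPS13) at the top, and -0.41 (RPS0B), -0.39 (RPS24A), -0.38 (RPS28B) and -0.36 (RPS2) near the bottom. RPS29A, with RPS29B the shortest member, had the fewest counts, 231 in top2-1 and 135 in wild type. Its interval thus ran from 0.19 to 0.82.

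Adding top2-1 to hmo1Δ went with slightly higher RPS ratios. Relative to hmo1Δ, the RPS median in hmo1Δ;top2-1 was 0.19, against 0.03 for RPL and 0.00 for all coding genes. RPS29A was 2-fold higher, with 66.6 CPM in hmo1Δ;top2-1 against 27.1 CPM in hmo1Δ, and no member was 2-fold lower; over all genes the shares were 0.732% and 2.18%. At 1.5-fold, 4 members were higher (RPS29A 1.29, RPS22B 0.93, RPS24B 0.77 and RPS1B 0.68) and none was lower, against 5.61% and 7.48% of all genes. RPS22B, RPS24B and RPS1B were also among the 5 lowest in hmo1Δ over wild type, a comparison that uses the same hmo1Δ library. RPS29 was the widest pair (1.19, A minus B), before RPS22 (-0.64), RPS1 (-0.59), RPS24 (-0.45) and RPS28 (0.42). The fifth highest gene was RPS26A (0.46), and the lowest were RPS14B (-0.49), RPS15 (-0.31), RPS14A (-0.24), RPS4B (-0.23) and RPS21B (-0.18).

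Against wild type, hmo1Δ;top2-1 had an RPS median of 0.40, with 0.22 for RPL and 0.00 for all coding genes. Of the members 8 were at least 2-fold higher and 2 lower, against 3.66% and 3.32% of all genes, and 23 were 1.5-fold higher and 5 lower, against 11.1% and 10.3%. In TPM the 1.5-fold counts were 12 higher and 9 lower, and the 2-fold counts 1 and 2. The highest were RPS29A (1.45), RPS21A (1.36), RPS25B (1.20), RPS7B (1.16) and RPS25A (1.12), with RPS27A (1.11), RPS10B (1.05) and RPS9B (1.04) also past 2-fold. Among the lowest were RPS0A (-1.28), RPS16B (-0.65), RPS15 (-0.62) and RPS6A (-0.59); RPS6 is the subunit protein phosphorylated under TORC1 signalling.

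**Figure D4:**
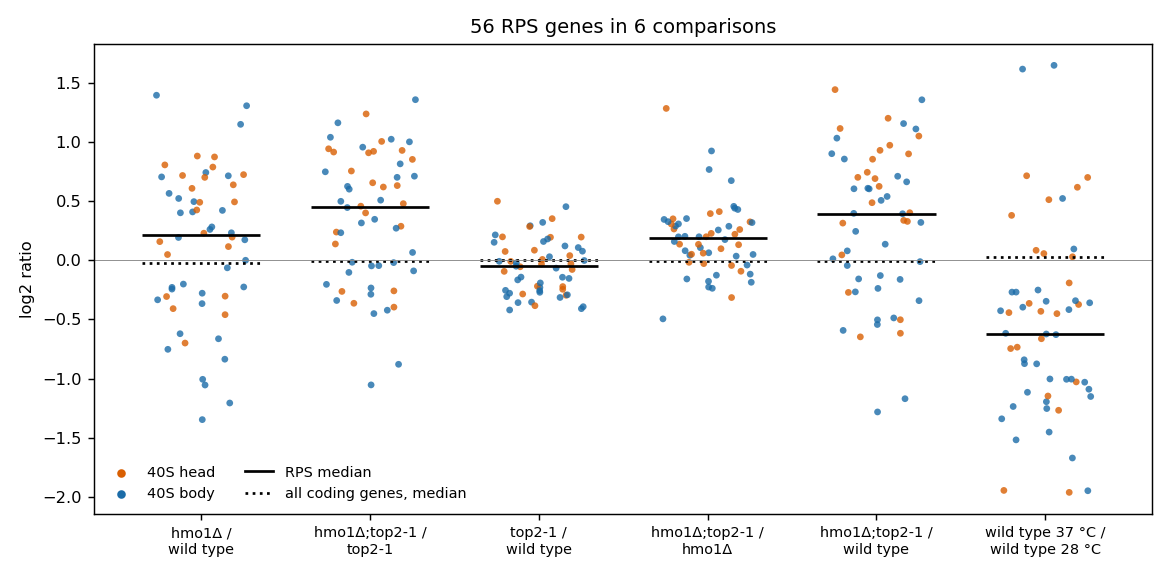
Log2 ratios of the 56 RPS genes in 6 comparisons of scaled CPM, coloured by place in the 40S subunit, with the RPS median (solid) and the median of 5599 coding genes (dotted). RPS medians are 0.21, 0.45, -0.05, 0.19, 0.40 and -0.62 from left to right; the top2-1 over wild-type points lie between -0.42 and 0.50.

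Genes for proteins of the head had higher median ratios than genes for proteins of the body when Hmo1 was lost. The median of hmo1Δ over wild type was 0.46 over 22 head genes and 0.09 over 34 body genes. At 1.5-fold, 9 head genes (40.9%) and 6 body genes (17.6%) were higher, against 15.5% of all coding genes. Lower were 1 head gene (4.55%) and 8 body genes (23.5%), against 14.6%. At least 2-fold higher were 0 head and 3 body genes, and lower 0 and 4, against 6.64% and 4.86% of all genes. With top2-1 in both arms the medians were 0.63 for head and 0.30 for body genes. Genes without an intron had a median of 0.34 in hmo1Δ over wild type (20 genes) and genes with one 0.15 (36 genes). Coding length moved with the ratios: its Spearman correlation with hmo1Δ over wild type was -0.36 over members and -0.11 over all coding genes. Over the 1481 coding genes no longer than the longest member, the median was 0.02 in hmo1Δ over wild type, 0.05 in hmo1Δ;top2-1 over top2-1 and 0.12 in top2-1 over wild type. The part of length in the RPS ratios was not tested.

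Hmo1 was found at most RPS promoters. A deposited peak met the 500 bp before the start codon at 46 of the 56 genes (82.1%, interval 69.6% to 91.1%) in the TopA library and at 46 (82.1%) in the control plasmid library, against 41.4% and 45.2% of all coding genes. RPL promoters gave 60 and 63 of 76. Both libraries had a peak at 43 RPS promoters; RPS12, RPS19A and RPS27A had one in the TopA library only, RPS13, RPS26B and RPS30A in the control library only, and 7 had none in either. Of the 20 highest-scoring peaks of each list, 5 met an RPS promoter in the TopA library and 4 in the control library, against 2.28% and 2.91% of all peaks. An RPL promoter was met by 7 and 4 of these 20, against 3.05% and 4.04% of all peaks. The single highest score of the control list, 2.82, lay at the promoter of RPS4B (chrVIII:505117-506117), and RPS23A followed among members with 2.74 (chrVII:726516-727306).

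Many peaks are broad, which limits what a promoter overlap means. Peaks covered 34.7% of the genome in the TopA library and 32.1% in the control library, and 25 (44.6%) and 29 (51.8%) RPS promoters had a peak under 3000 bp wide, against 18.9% and 19.3% of all coding genes. For the 12 members whose best control peak was under 1000 bp wide, its centre had a median position of -110 bp from the start codon, and lay upstream of it in 11. These peaks had to meet the 500 bp before the start codon, so this position is largely set by the choice of peaks. The peak counted for RPS14B began within its promoter and ran through the gene into RPS22A, its convergent neighbour, whose promoter it covered (chrX:73677-76888). RPS17A and RPS18B also share 1 broad peak. Peak scores reached 1.78 in the TopA list and 2.82 in the control list on a scale that is not stated, so scores were not compared between libraries. The genotype and the plasmid of the 2 libraries cannot be told apart.

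The 10 members without a peak in the control library were RPS2, RPS10B, RPS12, RPS19A, RPS20, RPS21A, RPS22B, RPS27A, RPS28A and RPS28B. In hmo1Δ over wild type 9 of the 10 were above 0, the exception being RPS22B, and their median was 0.55. The 46 with a peak had a median of 0.14, with 26 above 0. Of the 21 members below 0, 20 had a peak. With top2-1 in both arms the medians were 0.76 without and 0.33 with a peak. The medians of RPL genes were in the same order, 0.39 without (13 genes) and -0.02 with (63 genes), and those of all coding genes in the opposite order, -0.08 without and 0.05 with. The difference between the RPS medians was 0.41. Counting only peaks under 3000 bp, a choice made after seeing the data, it was 0.036, and under 4 other definitions of a promoter peak it was 0.49 to 0.56. Within members that had a peak, the score had a Spearman correlation of -0.13 with the ratio (46 genes).

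In 5 pairs only 1 paralog had a control peak. The paralog without a peak had the higher ratio of hmo1Δ over wild type in 4 of them: RPS10B 0.73 over RPS10A 0.05, RPS19A 0.61 over RPS19B -0.41, RPS21A 1.31 over RPS21B 0.17, and RPS27A 1.15 over RPS27B -0.33. RPS22 was the exception, with RPS22B at -1.06 and no peak, and RPS22A at 0.42 with one. RPS27A and RPS19A did have a peak in the TopA library. The other pairs that differed by 2-fold, RPS0, RPS1, RPS7, RPS16, RPS23 and RPS24, had a peak at both promoters.

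H3 nucleosomes were rare over RPS promoters in every library. The authors' lists hold 10841 nucleosomes in top2-1;top1Δ with TopA, 21862 in top2-1;top1Δ with the control plasmid, 25035 in wild type with TopA and 22079 in wild type with the control plasmid, each 148 bp wide. The first list stands apart: it is the shortest of the 4 and ranges from 0.502 nucleosomes per kb (chromosome XII) to 2.71 per kb (chromosome VI). A nucleosome overlapped the 400 bp before the start codon at 1, 3, 4 and 0 members in that order, against 15.6%, 27.8%, 22.9% and 17.4% of all coding genes. They were rare over RPL promoters too, at 4, 6, 2 and 2 of 76 in the same order. The 3 members in top2-1;top1Δ with the control plasmid were RPS29A, RPS30A and RPS9A. Those in wild type with TopA included RPS22B, RPS29A and RPS29B.

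Over RPS coding regions nucleosomes were fewer than elsewhere in wild type and nearer to the average in top2-1;top1Δ cells. With the control plasmid, nucleosomes covered a mean of 30.1% of the RPS coding region in top2-1;top1Δ, against 10.3% in wild type; over all coding genes the means were 32.2% and 28.8%. At least 1 nucleosome lay over the coding region of 47 RPS genes in top2-1;top1Δ and 23 in wild type, against 82.2% and 78.3% of all genes. Cover was higher in top2-1;top1Δ at 35 of 56 members (62.5%), lower at 4 (7.14%) and equal at 17, against higher at 43.9% and lower at 40.1% of all genes. In wild type 33 members (58.9%) had no cover, against 21.7% of all genes, and these could not be lower. The shares that were lower are thus not on an equal footing. Over RPL genes the means were 27.3% in top2-1;top1Δ and 11.7% in wild type. RPS3 had 81.9% in top2-1;top1Δ against 0 in wild type, and RPS28A and RPS28B 72.5% each against 0. The RPS28 genes have 204 coding bases, so 1 nucleosome of 148 bp covers most of each. The lower members, looked up after the count was seen, included RPS0B (35.0% against 50.3%), RPS6B (38.1% against 41.6%) and RPS30A (0 against 23.8%).

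With the TopA plasmid, wild-type cells had a mean cover of 19.2% over RPS coding regions, against 10.3% with the control plasmid, and cover was higher at 23 members (41.1%) and lower at 7 (12.5%), against higher at 50.7% and lower at 30.0% of all genes. A nucleosome lay over 35 members there, against 84.3% of all genes. The 33 members with no cover in wild type with the control plasmid could not be lower in wild type with TopA. In top2-1;top1Δ with TopA the mean was 7.50%, with a nucleosome over 13 members against 45.6% of all genes. There cover was higher than in top2-1;top1Δ with the control plasmid at 4 members (7.14%) and lower at 37 (66.1%), against higher at 15.0% and lower at 66.6% of all genes, so the share that was lower is that of the genome, and higher than in wild type with TopA at 7, against 14.4%. That library has the short list, so its own low number of nucleosomes moves with these values and its part was not tested. RPS2 had 19.3% in top2-1;top1Δ with TopA, 55.4% in top2-1;top1Δ, 58.0% in wild type with TopA and 19.3% in wild type.

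**Figure D5:**
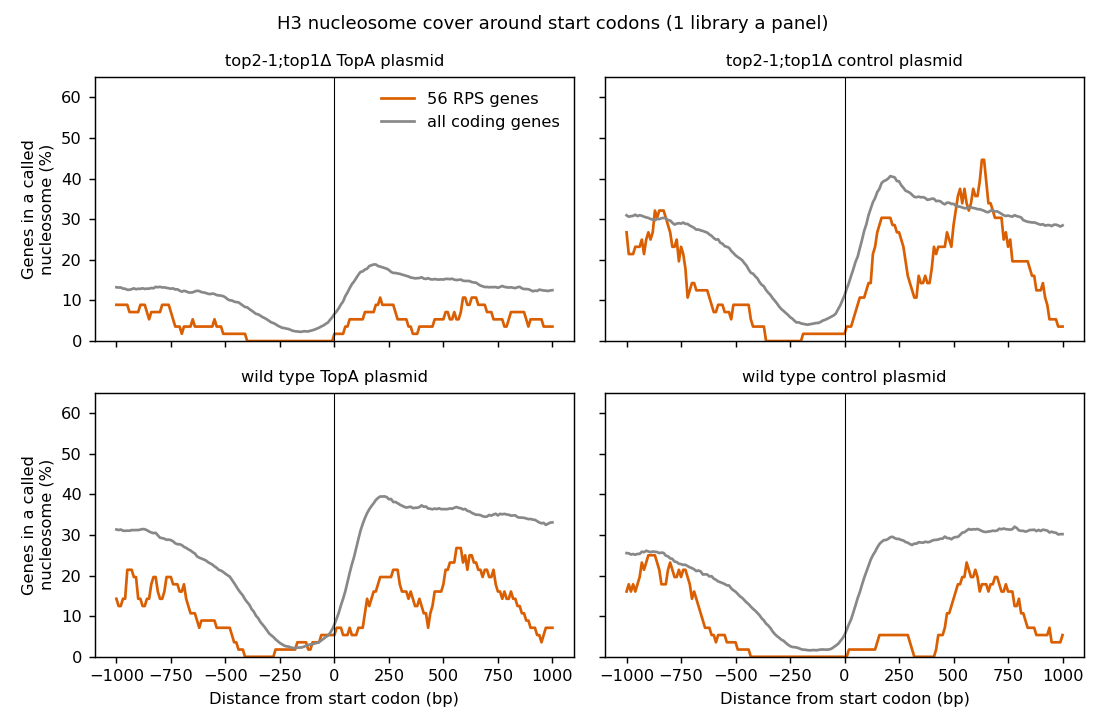
Percentage of genes whose base lies in a deposited H3 nucleosome, by distance from the start codon (bp, downstream positive), for the 56 RPS genes (orange) and all nuclear coding genes (grey) in the 4 H3 libraries. RPS cover is low just before the start codon in all panels, and its coding mean is 30.1% in top2-1;top1Δ and 10.3% in wild type with the control plasmid.

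Top2 contacts were sparse at RPS genes. Of the 1887 pairs of anchors in the ChIA-PET list, at least 1 met the gene or its 500 bp promoter at 15 of 56 RPS genes (26.8%) and 26 of 76 RPL genes (34.2%), against 42.9% of all coding genes, which are longer. The 15 genes had 2 to 6 tags each, the most at RPS19B (6 tags in 3 pairs of anchors) and RPS1A (5 tags in 2).

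The wild-type library at 37 °C had lower RPS values than the one at 28 °C relative to other genes, but how much depends wholly on the scaling. The median log2 ratio of 37 °C over 28 °C was -0.62 for RPS, -0.54 for RPL and 0.03 for all coding genes. At least 2-fold lower were 20 members and higher 2, against 14.9% and 14.6% of all genes, and 29 were 1.5-fold lower and 5 higher, against 25.9% and 27.7%. Under library totals the RPS median was 0.26 and in TPM 1.58, beside 0.90 and 1.91 over all genes, and the 1.5-fold counts became 16 higher and 5 lower, and 52 higher and 0 lower. Under every scaling tried the RPS median stayed 0.34 to 0.65 below that of all genes. The makeup of the 28 °C library moves with this comparison, and temperature, cell cycle and library cannot be told apart.

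The spread between members in that comparison was wide. RPS15 had 490 CPM at 37 °C, against 1911 CPM at 28 °C, a ratio of -1.96, and RPS0B had 745 CPM against 2879 CPM, a ratio of -1.95. RPS29A (-1.95), RPS7B (-1.67) and RPS9A (-1.52) were the next lowest. RPS30A had 492 CPM at 37 °C, against 156 CPM at 28 °C, a ratio of 1.65, and RPS30B 536 CPM against 174 CPM, a ratio of 1.62. RPS17B (0.72), RPS10B (0.70) and RPS31 (0.62) were also among the highest 5. Another 15 members were at least 2-fold lower, the lowest of them RPS22B (-1.45); they include RPS0A, RPS12, RPS14A, RPS21A, RPS21B, RPS22A, RPS22B, RPS23B, RPS24B, RPS26A, RPS27A, RPS27B, RPS28A and RPS29B. The RPS7 pair was the furthest apart, by 2.20 on the log2 scale: RPS7A gave 76.0% of RPS7 counts at 37 °C, against 40.9% at 28 °C. The next widest pairs were RPS9 (-0.90, A minus B), RPS24 (0.90) and RPS16 (0.88).

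Genes that act on RPS proteins or their promoters were counted as separate lists. Of 15 factors of 40S maturation, 6 were at least 1.5-fold lower and none higher in hmo1Δ over wild type, against 14.6% of all genes lower, with LTV1 at -1.38, RRP12 at -1.24, TSR1 at -0.74, FYV7 at -0.75, PNO1 at -0.60 and DIM1 at -0.60. With top2-1 in both arms, 3 of the 15 were lower (RRP12 -0.90, LTV1 -0.81 and TSR1 -0.62) and 1 higher (RIO1, 0.60), against 10.1% of all genes in each direction. LTV1, which helps RPS3 and RPS20 join the subunit, was also lower in hmo1Δ;top2-1 over wild type at 37 °C, at -0.66. Of the 4 chaperones dedicated to single RPS proteins, TSR4 (for RPS2) was at -1.42, TSR2 (for RPS26) at -0.76, YAR1 (for RPS3) at -0.34 and FAP7 (for RPS14) at 0.04.

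A list of 10 genes held transcription factors of ribosomal protein genes and their partners. Of these, 2 were at least 1.5-fold lower in hmo1Δ over wild type and none higher, against 14.6% and 15.5% of all genes. These 2 were the deleted HMO1, with no counts, and IFH1, so that 1 of the other 9 was lower, near the share of all genes. IFH1 was at -0.75 and FHL1 at -0.32 in hmo1Δ over wild type, and RAP1 at 0.53; in hmo1Δ;top2-1 over top2-1 IFH1 was at -0.27. Of 13 translation initiation factors none was 1.5-fold higher or lower in either comparison of Hmo1 loss, with medians of -0.13 in hmo1Δ over wild type and 0.06 in hmo1Δ;top2-1 over top2-1. ASC1 and STM1, for proteins bound to the 40S subunit, were at -0.34 and 0.15 in hmo1Δ over wild type.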

How the data were processed

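The deposited tables of 12 samples were used, and 6 ChIP input samples were not used here. Per the submitters' processing notes the RNA reads were aligned with STAR to R64 and the authors counted genes with RSEM, depositing expected counts, used here rounded, and TPM values, used for levels per length and as an alternative. The deposited H3 tables hold called nucleosomes, each with its smoothed summit signal and its fuzziness as a score, and the deposited Hmo1 lists give peaks with a score of unstated scale; their callers are not given in the sources used here. The deposited ChIA-PET list gives a count of paired tags for each pair of anchors; no build is stated for it, and it was read as R64.

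Counts were scaled by TMM over the 5 RNA libraries with edgeR 4.0.16 (R 4.3.3) and turned into log2 CPM with a prior count of 2. A filter of 20 counts on average over the libraries left all 56 members and 5599 of the 5988 nuclear coding genes in the tables. Counting intervals are exact (Clopper-Pearson, 95%) and were tested on simulated counts. Hmo1 promoters were 500 bp and H3 promoters 400 bp before the start codon, and an overlap of at least 1 bp counted; H3 cover is a percent of bases, and coding regions include introns. Head and body are the 40S domains of each protein, assigned from textbook knowledge. Alternatives were DESeq2 1.42.0 size factors, library totals, TPM with 1 added, TMM over the 4 libraries at 37 °C, a prior count of 0.5, coding genes only, other count filters, and other promoter, overlap and peak rules. Members, gene lists and rules were chosen with earlier results of these data known. Named genes are the single-copy genes, the 5 highest and 5 lowest members and the 5 widest pairs of each comparison, members past 2-fold, and members without a control Hmo1 peak; RPS6B and RPS9A in H3, the pairs given by share or as balanced, the protein sums and the list genes named at the end were picked after their values were seen. A few members enter every count and median but are not reported here by name. Sequences of genes and promoters were not used here.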

Additional observations from a re-analysis of the deposited data

Results flagged for a closer look

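Among the members reported here by name, 4 had ratios without Hmo1 of opposite signs in the top2-1 and wild-type backgrounds. For each of them both counting intervals excluded 0. With 1 library in each group the difference itself was not tested. RPS9A was at 0.23 in hmo1Δ;top2-1 over top2-1 and at -0.24 in hmo1Δ over wild type. In the same order, RPS18B was at 0.14 and -0.31, RPS0B at 0.068 and -0.22, and RPS21B at -0.089 and 0.17. These signs rest on the scaling. Under library totals RPS0B was at -0.018 and -0.46 and RPS21B at -0.17 and -0.064, below 0 in both backgrounds. In TPM RPS0B was at -0.059 and -0.53, RPS18B at -0.018 and -0.63, and RPS21B at -0.33 and -0.18. RPS9A had opposite signs under each of the 5 scalings, with 0.15 and -0.48 under library totals and 0.098 and -0.55 in TPM.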

How the results depend on the processing

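Every group had 1 library, so intervals cover counting error only, the spread between cultures is unknown, and values of single paralogs also rest on how shared reads were divided. No paired analysis was possible because each group had 1 library. DESeq2 size factors, TMM over the libraries at 37 °C, scaling on coding genes only, a prior count of 0.5 and other count filters left every median and count of members within its limits; library totals and TPM did not, and the cause was not tested. In hmo1Δ over wild type, library totals gave 5 members 1.5-fold higher, and TPM gave a median of -0.15, with 1 member 2-fold higher and 7 lower, 3 at 1.5-fold higher and 15 lower. In hmo1Δ;top2-1 over wild type, TPM gave 1 member 2-fold higher, and 12 at 1.5-fold higher and 9 lower. In hmo1Δ;top2-1 over top2-1, library totals gave 3 members 2-fold higher, and TPM a median of 0.23 with 2 higher and 2 lower. In hmo1Δ;top2-1 over hmo1Δ, library totals gave a median of 0.38 with 2 members 2-fold and 8 at 1.5-fold higher, and TPM a median of 0.31 with 2 at 2-fold higher. For 37 °C over 28 °C in wild type, library totals turned the median to 0.26, with 8 members 2-fold higher and 3 lower, and 16 at 1.5-fold higher and 5 lower; TPM turned it to 1.58, with 46 at 2-fold higher and 0 lower, and 52 at 1.5-fold higher and 0 lower. In TPM that comparison also turned named genes that had been 2-fold lower: RPS0A 0.83, RPS0B 0.076, RPS7B 0.39, RPS9A 0.54, RPS12 1.09, RPS14A 1.13, RPS15 0.16, RPS21A 1.18, RPS21B 1.25, RPS22A 1.14, RPS22B 0.69, RPS23B 0.88, RPS24B 0.88, RPS26A 1.17, RPS27A 1.35, RPS27B 1.04, RPS28A 1.43, RPS29A 0.86 and RPS29B 1.55. Peaks under 3000 bp wide, a limit chosen after seeing the data, left an Hmo1 peak at 25 RPS promoters (TopA) and 29 (control), against 18.9% and 19.3% of all coding genes, and a median difference without over with a peak of 0.036. Summing paralogs left 5 of 32 proteins 1.5-fold higher and 2 lower in hmo1Δ over wild type, against 15 and 9 of 56 genes, and 0 against 4 higher in hmo1Δ;top2-1 over hmo1Δ. The number of paralog pairs differing by 2-fold did not change under any scaling, and nucleosomes of the upper summit signals gave RPS coding means of 3.71% in top2-1;top1Δ with TopA, 25.2% in top2-1;top1Δ, 12.9% in wild type with TopA and 7.01% in wild type.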
